A study of Mus musculus with 4 samples.

Results

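This account covers genes for the contents and membranes of the acrosome and for sperm proteins that act at fertilization, measured in mouse testes with and without Taf7l. The list holds 34 genes, chosen by gene symbol. Of these, 32 had a probe set that names a single gene (45 probe sets in all), out of 18194 such genes on the array, while Spaca5 and Tmem95 were not analysed here. Each gene is described at its leading probe set, the one with the highest mean signal over the arrays, and its dimmer probe sets were checked against it. A filter on signal kept probe sets whose mean signal was at or above 45.8, the median over the mouse probe sets, and 31 of the 34 listed genes passed it at their leading probe set, among 12241 genes tested. Dcst2 did not pass, at 7.65, 6.74, 7.64 and 7.35 on the 4 arrays.

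The study set testes of wild type males beside those of Taf7l knockout males, with 2 Affymetrix arrays for each genotype. The animals were 8 weeks old and are labelled as strain C57BL/6J, and the series text calls the mutant and wild type animals littermates. Taf7l, an X-linked gene for a germ cell relative of the general transcription factor subunit TAF7, had signals of 829 and 818 in wild type and 80.6 and 72.5 in the knockout (10.8-fold lower, limma adjusted p = 0.0033). How the Taf7l allele was made is not stated in the labels. The labels call the arrays biological replicates, but the title and the description of the second knockout array give it different numbers. If both knockout arrays share an animal, the p-values here reflect array-to-array spread that may be technical.

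The acrosome is a secretory granule that round spermatids build from Golgi vesicles and spread as a cap over the nucleus. Its matrix holds proteases, their binding partners and zona-binding proteins, and its membranes carry proteins that become exposed when the granule opens near the egg. A further set of surface proteins, many of them anchored through a lipid and related to Ly6, is processed in the testis and is needed for sperm to reach and bind the egg. In the mouse most of these genes are transcribed in spermatocytes or round spermatids, and their proteins act later in mature sperm.

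Most of the genes had lower signal in the knockout, by small amounts. At the leading probe sets 28 of 31 had a lower mean, and the median log2 difference, knockout minus wild type, was −0.24, which is a signal 15.6% lower. Among all 12241 genes tested 60.7% were lower, with a median of −0.05. The genes on the list mostly have strong signals, and strong signals ran lower as a whole: of the 4085 genes with a mean signal of 1000 or more, 73.1% were lower, with a median of −0.12, against 26 of 28 and −0.23 for the listed genes in that range. Both knockout arrays lay below both wild type arrays for 25 of the 31 genes, above for 2 (Tex101 and Lypd4), and the groups overlapped for 4. Such separation was seen downward in 38.7% and upward in 19.6% of all genes, and downward in 56.5% of those with a signal of 1000 or more. The limma test across the whole table called 1 of the 31 genes, Pcsk4, lower, where 1.2% of all genes at their leading probe set were called lower, and none higher, against 0.539%. At an unadjusted p under 0.05 limma gave 16 lower and 1 higher, against backgrounds of 20.4% and 7.49%. With a signal of 1000 or more it gave 14 of 28 lower, against 36.3% of all genes in that range. That excess lay mostly in the dimmer part of the range. The 10 listed genes among its 2789 dimmer genes gave 7 lower, against 36.4% of all. The 18 listed genes among its 1296 brightest gave 7 lower (38.9%), against 36.0% of all. Those 18 had a median of −0.18, against −0.11. Both knockout arrays lay below both wild type arrays for 14 of them, against 57.9%.

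The size of this shift depended on how the arrays were scaled and on 1 knockout array. The median was −0.12 after quantile normalization, with 24 of 31 lower, when all genes had a median of 0.00. It was −0.14, with 22 lower, when the arrays were set to a common trimmed mean, which moved the median of all genes to 0.05. Among genes with a signal of 1000 or more, those 2 scalings gave −0.02 and −0.02 for all genes and −0.12 and −0.13 for the listed ones. Knockout replicate 1 lay below knockout replicate 2 for 27 of the 31 genes, against 55.4% of all genes, with a median gap of −0.11 against −0.02. The wild type arrays also differed, by less: replicate 1 lay below replicate 2 for 7 of the 31, against 49.0% of all genes. The median gap there was 0.03 against 0.00. Set against the wild type mean, the listed genes had a median of −0.29 on knockout replicate 1 and −0.14 on knockout replicate 2. The median without knockout replicate 1 was −0.14. Among genes with a signal of 1000 or more it was then −0.14 for the listed genes and −0.10 for all genes. With any 1 array left out, limma takes the spread from the other genotype alone and called 0 of the kept probe sets, Taf7l included (7 to 20 of the 31 genes had an unadjusted p under 0.05), so those fits say nothing of single calls. Wild type replicate 2 and knockout replicate 2 held exactly equal values at 2385 probe sets, against 229 to 620 for other pairs of arrays, but at 0 of the 45 probe sets of listed genes. In whole testis, fewer cells of a type and less RNA per cell cannot be told apart.

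**Figure D1:**
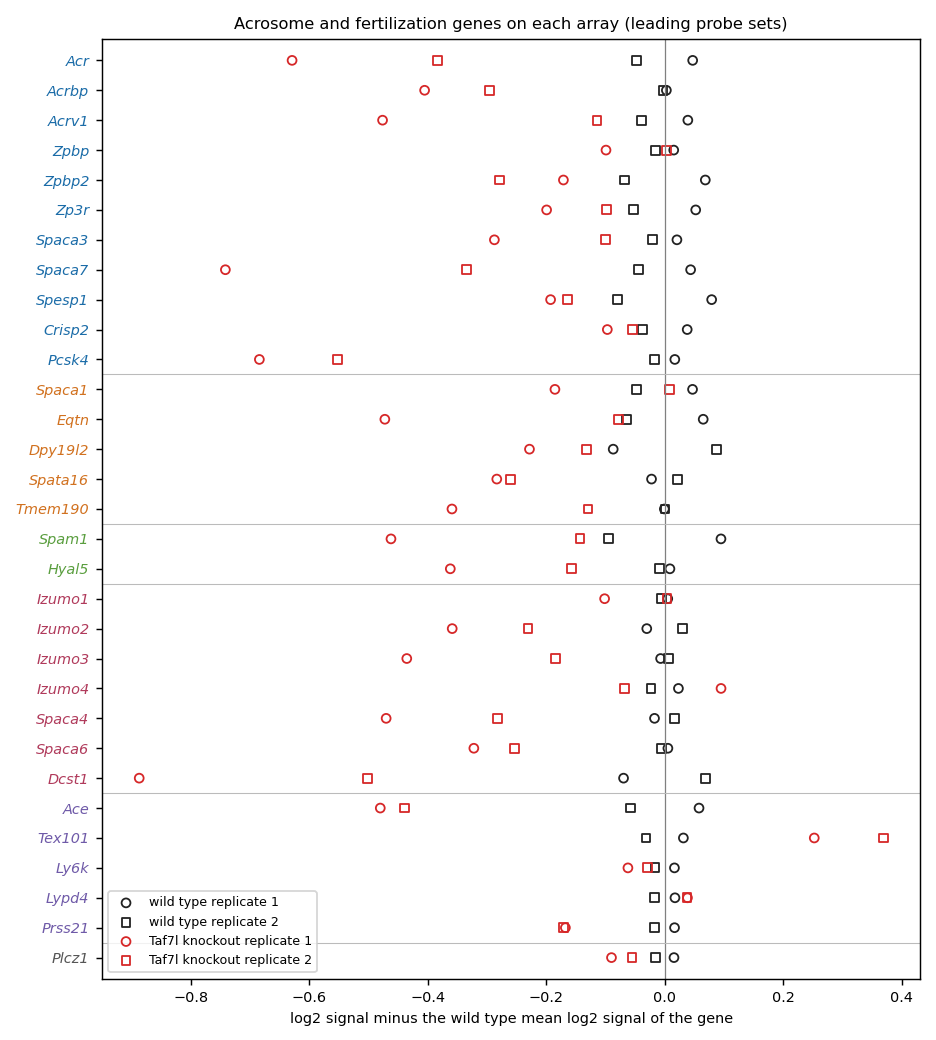
Signal of 31 acrosome and fertilization genes on each array, as log2 signal minus the mean log2 signal of the wild type arrays; circles are replicate 1, squares replicate 2, black wild type and red Taf7l knockout, with label colours and grey lines separating the roles. For 25 genes both red symbols lie left of both black ones, and the red circle lies left of the red square for 27.

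Of the listed genes, 12 code for contents of the acrosomal matrix or proteases, and all 11 that were measured had a lower mean, with a median log2 difference of −0.22 that was −0.11 after quantile normalization (10 lower) and −0.12 at a common trimmed mean (9 lower). Pcsk4, a proprotein convertase of germ cells whose substrates include sperm surface proteins, had 1492 and 1457 in wild type and 917 and 1005 in the knockout. It fell 1.53-fold (log2 −0.62, SE 0.078, limma adjusted p = 0.047), and both knockout signals were far below both wild type ones. Over the alternatives that used all 4 arrays it passed the threshold of 0.05 under 8 of 11 (adjusted p 0.0058 to 0.16), and its log2 difference stayed between −0.68 and −0.51 under all that were run, those with an array left out included.

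Acr codes for proacrosin, the zymogen of the main acrosomal protease. Its signals were 4148 and 3885 in wild type and 2596 and 3077 in the knockout, a difference of −0.51 (SE 0.099, adjusted p = 0.067). The groups did not overlap, but the adjusted p did not pass. Acrbp codes for the protein that holds proacrosin in the granule. Its leading probe set read 6778 and 6752 in wild type and 5108 and 5509 in the knockout (log2 −0.35, SE 0.061, adjusted p = 0.059). At its dimmer probe set the signals were 3108 and 2776 against 1913 and 1989, where Acrbp fell 1.506-fold (log2 −0.59, SE 0.079, limma adjusted p = 0.049), a call kept under 5 of 10 alternatives with all arrays, with a log2 difference of −0.67 to −0.46 over every alternative run. Both probe sets were lower on both knockout arrays.

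Spesp1, a protein of the equatorial segment where sperm and egg membranes meet, had probe sets that differed in size but not in direction. The leading one had 19371 and 17355 in wild type against 16043 and 16362 in the knockout (log2 −0.18, adjusted p = 0.18). The dimmer one had 1483 and 1506 against 1000.3 and 937, where Spesp1 fell 1.54-fold (log2 −0.63, SE 0.072, limma adjusted p = 0.047), a call kept under 7 of 10 alternatives with all arrays, with a log2 difference of −0.67 to −0.52 over every alternative run. With these, 3 of the 40 probe sets of listed genes that passed the filter were called, all lower, where 1.39% of the 22519 kept probe sets were called in either direction and 0.941% were called lower. All 3 had a mean signal of 1000 or more. In that range 92 of 4085 genes were called lower at their leading probe set, and 1 of the 28 listed genes. The calls of Acrbp and Spesp1 were at dimmer probe sets, so the 3 do not compare directly with those counts.

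Spaca7, a matrix protein released when the granule opens, had a wide gap between the knockout arrays, at 5072 and 6726, with 8742 and 8228 in wild type. Its difference was −0.54 (SE 0.14, adjusted p = 0.097), and −0.33 without knockout replicate 1. Acrv1, an abundant acrosomal vesicle antigen, showed the same layout with 12686 and 12017 in wild type and 8874 and 11406 in the knockout (log2 −0.30, adjusted p = 0.23). Here the second knockout array came close to the wild type pair.

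Other matrix genes differed less. Zpbp and Zpbp2 are paralogues for zona-binding proteins needed to shape the acrosome. Zpbp2 had 10270 and 9339 in wild type and 8699 and 8072 in the knockout (log2 −0.22, adjusted p = 0.14), whereas Zpbp had 12625 and 12362 against 11663 and 12516 (log2 −0.05, adjusted p = 0.66). The groups overlapped for Zpbp and not for Zpbp2, but whether the paralogues differ from each other was not tested. The zona receptor gene Zp3r was at 6130 ± 314 and 5528 ± 272 (SD, n = 2 arrays each, as in all such values here; adjusted p = 0.26 by limma). The lysozyme-like gene Spaca3 was at 5020 ± 102 and 4399 ± 405 (adjusted p = 0.22), while its dimmer probe set, at 44.1 ± 4.41 and 51.4 ± 4.75, had the opposite sign at a signal near the filter. Crisp2, a cysteine-rich protein of acrosome and tail, was at 48552 ± 1807 and 46053 ± 949, a difference of −0.08 that became 0.03 at a common trimmed mean.

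**Figure D2:**
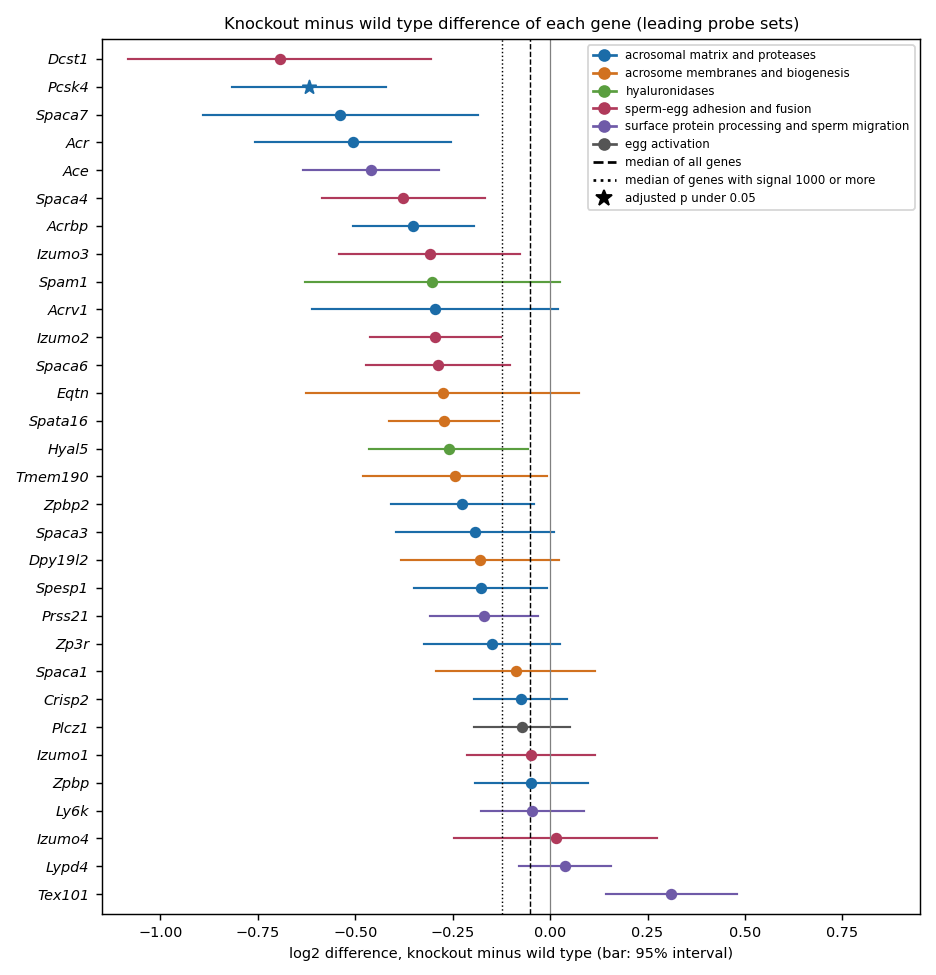
Log2 difference, knockout minus wild type, of each gene at its leading probe set with the 95% interval from limma, coloured by role, with dashed and dotted lines at the medians of all genes (−0.05) and of genes with a signal of 1000 or more (−0.12). The star marks Pcsk4, the gene called, and the intervals of 17 of the 31 genes exclude 0, of which only that of Tex101 lies above it.

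The 5 genes for acrosome membranes and biogenesis all had a lower mean (median −0.24, which was −0.12 after quantile normalization and −0.14 at a common trimmed mean), and none was called. Spata16, a Golgi protein of the vesicles that fuse into the acrosome, was the steadiest, with 4588 and 4731 in wild type and 3828 and 3889 in the knockout (log2 −0.27, SE 0.056, adjusted p = 0.071). Its dimmer probe set had 223 and 188 against 160 and 140 (log2 −0.45, adjusted p = 0.12), with no overlap at either. Tmem190, of the inner acrosomal membrane, had 2217 and 2219 against 1729 and 2028 (log2 −0.24, adjusted p = 0.19). Dpy19l2, which anchors the acrosome to the nuclear envelope, was at 7022 ± 598 and 6191 ± 294 (log2 −0.18, adjusted p = 0.24). For both, the knockout arrays lay below the wild type arrays.

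Eqtn, an acrosomal membrane protein, shows how much rested on knockout replicate 1. Its leading probe set had 12035 and 10999 in wild type, 8292 on that array and 10902 on the other (log2 −0.28, adjusted p = 0.29). The middle probe set, at 3837 and 3773 against 3033 and 3568, and the dimmest, at 1990 and 1982 against 1657 and 1995, had the same order of the knockout arrays. Without knockout replicate 1 the leading difference was −0.08. Spaca1, needed for the acrosome to form, was at 18850 ± 868 and 17759 ± 1682, and its difference of −0.09 became 0.02 at a common trimmed mean and 0.01 without knockout replicate 1.

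Spam1 and Hyal5 code for lipid-anchored hyaluronidases that help sperm through the cumulus, and they are next to each other on chromosome 6. Spam1 had 3652 and 3201 in wild type and 2482 and 3096 in the knockout (log2 −0.30, SE 0.13, adjusted p = 0.23). Hyal5 had 8753 and 8647 against 6769 and 7797 (log2 −0.26, SE 0.080, adjusted p = 0.13). Neither was called, neither had overlapping groups, and in both the first knockout array was the lower one.

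Among the 7 measured genes for sperm-egg adhesion and fusion, 6 had a lower mean and none was called (median −0.29, which was −0.20 after quantile normalization and −0.19 at a common trimmed mean, with 5 lower under each). Dcst1, a membrane protein required for fertilization, had the largest difference of all 31, at 293 and 323 in wild type and 166 and 217 in the knockout (log2 −0.69, SE 0.15, adjusted p = 0.076). Its partner gene Dcst2 is its neighbour on chromosome 3, with annotated starts only 66 bases apart on opposite strands. The Dcst2 probe set was under the filter, so the pair was not compared. Spaca4, a Ly6-type surface protein used in binding and crossing the zona, had 2991 and 3063 against 2185 and 2488 (log2 −0.38, SE 0.083, adjusted p = 0.076). Spaca6, an IZUMO1-like fusion protein, had 887 and 880 against 707 and 741 (log2 −0.29, adjusted p = 0.095), and 363 and 396 against 324 and 323 at its second probe set. For both genes every knockout signal was below every wild type signal.

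None of the 4 Izumo genes was called, and 2 of them had overlapping groups. Izumo1, the sperm ligand of the egg receptor JUNO, had 3338 and 3314 in wild type and 3100 and 3335 in the knockout. The groups overlapped, and the difference of −0.05 (95% interval −0.21 to 0.12, adjusted p = 0.70) became 0.08 after quantile normalization, 0.06 at a common trimmed mean and 0.00 without knockout replicate 1. Izumo2 had 8110 and 8458 against 6459 and 7058 (log2 −0.29, 95% interval −0.46 to −0.13, adjusted p = 0.078). Izumo3, which acts in acrosome formation in the mouse, had 10813 and 10918 against 8034 and 9566 (log2 −0.31, adjusted p = 0.12). Izumo4 had a weak signal of 178 and 172 against 187 and 167, with overlapping groups and a difference of 0.01. Differences between family members were not tested.

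The 5 genes for surface protein processing and sperm migration were the most mixed, with 3 lower and 2 higher and a median of −0.05 that became 0.07 after quantile normalization and 0.06 at a common trimmed mean. Tex101, a lipid-anchored Ly6-type protein of germ cells that is needed to make mature ADAM3, was the clearest exception to the lower signals. It had 5135 and 4915 in wild type and 5985 and 6488 in the knockout, 1.24-fold higher (log2 0.31, SE 0.066, limma adjusted p = 0.073). Both knockout signals lay above both wild type ones, and the difference ran from 0.25 to 0.44 over the alternatives, with an adjusted p of 0.022 to 0.196 over those that used all 4 arrays, below 0.05 under 3 of 12. Its partner gene Ly6k, also needed for ADAM3, was at 6720 ± 108 and 6512 ± 107 (log2 −0.05, 0.07 after quantile normalization and 0.06 at a common trimmed mean). Lypd4, a further Ly6-type gene, had 15130 and 14771 against 15353 and 15344 (log2 0.04, 95% interval −0.08 to 0.16). Prss21, a lipid-anchored serine protease of sperm, had 4569 and 4465 against 4021 and 4011 (log2 −0.17, adjusted p = 0.14).

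Ace, a peptidase with a testis form made from its own internal promoter, had probe sets that went opposite ways. The leading one had 3408 and 3145 in wild type and 2347 and 2413 in the knockout (log2 −0.46, SE 0.068, adjusted p = 0.051). The dimmer one had 685 and 579 against 840 and 709 (log2 0.29, SE 0.13, adjusted p = 0.24). At neither did the groups overlap, neither was called, and the difference between the probe sets was not tested. Which Ace transcript each probe set reads was not analysed here.

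Plcz1, the sperm phospholipase that starts calcium waves in the egg, had 13101 and 12820 in wild type and 12177 and 12473 in the knockout at its leading probe set. That difference was −0.07 (adjusted p = 0.42), 0.01 after quantile normalization and 0.03 at a common trimmed mean. Its other probe set had 12154 and 12619 against 8902 and 11540 (log2 −0.29, adjusted p = 0.24). Neither was called, and the drop on the second rested mostly on knockout replicate 1.

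**Figure D3:**
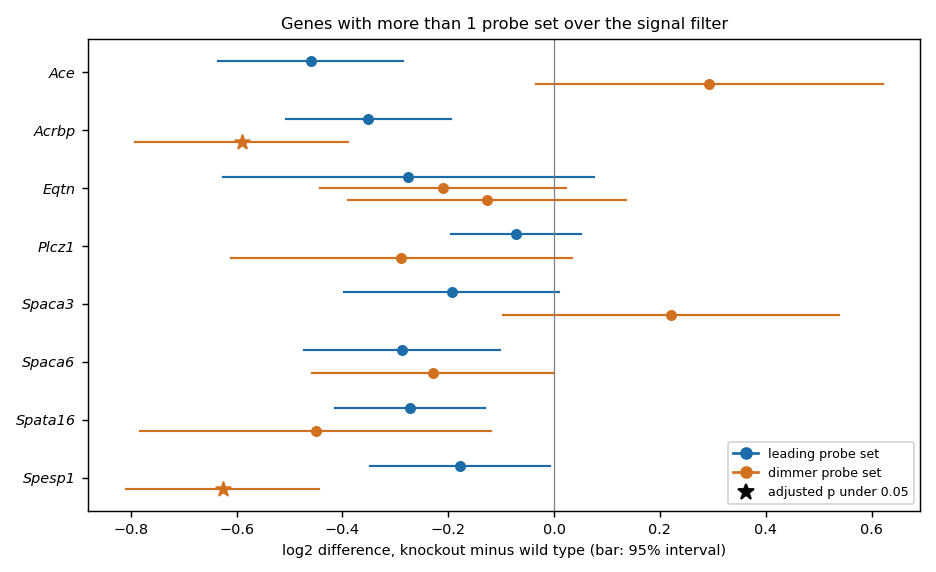
Log2 difference, knockout minus wild type, with the 95% interval from limma, for each probe set over the filter of the 8 genes with more than 1; blue is the leading probe set, orange the dimmer ones and stars those called. Of 9 dimmer probe sets 7 have the sign of the leading one, and those of Ace and Spaca3 have the other sign.

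**Figure D4:**
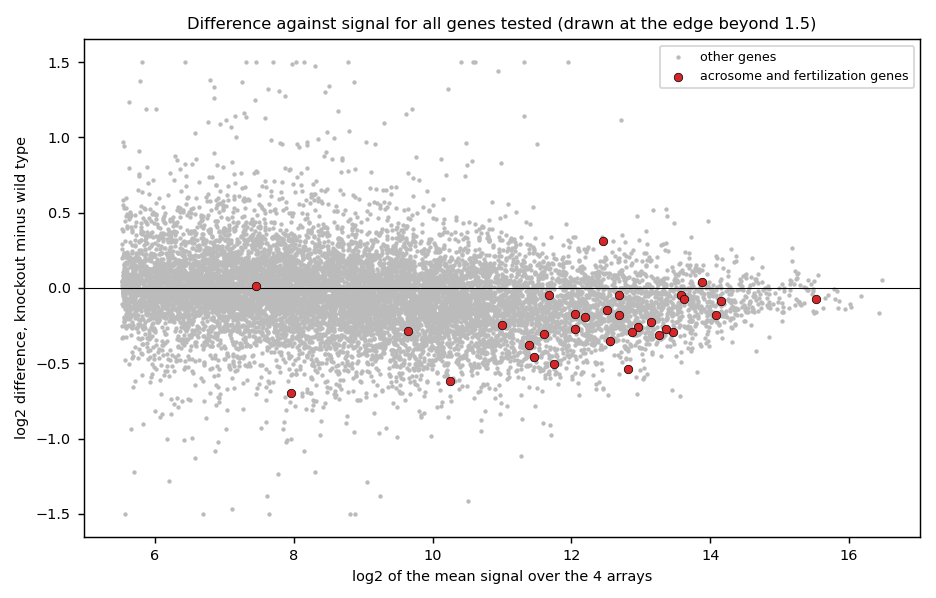
Log2 difference, knockout minus wild type, against the log2 of mean signal for all 12241 genes tested (grey, drawn at the edge beyond 1.5) and the 31 listed genes (red). Of the listed genes 28 have a mean signal of 1000 or more, where grey points also lie mostly below 0.

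Promoter sequence was read for 28 of the 34 listed genes from RefSeq (assembly GRCm38.p6), as windows from 250 bases before an annotated start to 50 after it, over both strands. The motif TATAAA was found for 3 of 28 listed genes and 15.7% of 27025 genes, the cAMP response element TGACGTCA for 1 (2.03% of all genes), its core TGACG for 8 (23.0%) and GTTGCC, which is part of the RFX site, for 6 (14.1%). Some matches of TGACG lie inside TGACGTCA. Both TGACG and GTTGCC were held by 2 of the 28, Acrbp and Spesp1, and by 3.46% of all genes. The 250 bases before their starts are shown, chosen after the calls at their dimmer probe sets were seen and with no relation to those calls tested. Motif letters are in capitals, for Acrbp at chr6:125049677-125049926 on the plus strand and for Spesp1 at chr9:62282180-62282429 on the minus strand, where its TGACG starts 7 bases past the start and outside the part shown.
Acrbp: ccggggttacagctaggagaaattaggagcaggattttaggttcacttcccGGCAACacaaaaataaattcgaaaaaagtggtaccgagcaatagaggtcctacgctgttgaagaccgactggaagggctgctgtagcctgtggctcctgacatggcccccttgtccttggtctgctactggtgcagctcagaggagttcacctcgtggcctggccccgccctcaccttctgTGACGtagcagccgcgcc
Spesp1: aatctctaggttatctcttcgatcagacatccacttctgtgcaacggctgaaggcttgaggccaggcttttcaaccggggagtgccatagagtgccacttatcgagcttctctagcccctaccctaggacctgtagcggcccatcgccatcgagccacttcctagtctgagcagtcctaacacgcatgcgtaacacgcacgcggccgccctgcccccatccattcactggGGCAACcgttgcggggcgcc

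Izumo1 was the listed gene with a full TGACGTCA, and its signal differed little. It is shown at chr7:45621561-45621810 on the plus strand, with the element in capitals, at position −96 from the start. The 7 measured genes with TGACG had differences from −0.35 to −0.05 (median −0.18), and the 18 without it from −0.69 to 0.31 (median −0.28), so the ranges overlapped.
Izumo1: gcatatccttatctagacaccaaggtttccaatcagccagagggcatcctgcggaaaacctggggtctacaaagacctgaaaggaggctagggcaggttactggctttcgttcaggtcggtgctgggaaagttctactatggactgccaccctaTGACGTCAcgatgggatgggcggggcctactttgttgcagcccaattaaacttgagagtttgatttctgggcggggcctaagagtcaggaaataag

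RefSeq gives Ace 2 starts, 7241 bases apart on chromosome 11, and they differ in sequence. The upstream window, at chr11:105967698-105967947, has TTTATA starting 31 bases before the start. The downstream window, at chr11:105974939-105975188, has none of the 4 motifs above. It carries TGAGGTCA, a relative of the cAMP response element, 52 bases before the start and TCTTATT 29 bases before it, both in capitals. These last motifs were chosen after the window had been read, and elements of this kind are known from the mouse testis promoter of Ace.
Ace upstream start: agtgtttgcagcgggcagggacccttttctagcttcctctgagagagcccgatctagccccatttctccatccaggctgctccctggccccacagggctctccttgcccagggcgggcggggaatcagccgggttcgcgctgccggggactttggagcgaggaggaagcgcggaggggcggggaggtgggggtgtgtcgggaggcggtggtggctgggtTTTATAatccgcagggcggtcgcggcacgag
Ace downstream start: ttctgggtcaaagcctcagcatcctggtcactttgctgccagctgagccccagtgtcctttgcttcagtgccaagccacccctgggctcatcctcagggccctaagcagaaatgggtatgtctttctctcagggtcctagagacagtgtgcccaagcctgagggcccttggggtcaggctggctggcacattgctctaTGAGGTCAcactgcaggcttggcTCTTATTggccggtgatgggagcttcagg

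A search of all windows for TGAGGTCA on either strand found it for 7 of the 28 listed genes and for 649 of 27025 genes, which is 2.40%. Without Ace, where it was first seen, it was 6 of 27. Of the 20 other spermatid genes with a window, 3 held it, which is 15.0%. No test was made, since the motif was chosen from one of the sequences. The 7 genes had differences from −0.46 (Ace) to 0.04 (Lypd4), with a median of −0.29, and the 18 measured genes with a window and no match had −0.69 to 0.31, with a median of −0.20, so holding the motif did not separate them. TCTTATT was found for 4 of 28 and for 4.16% of all genes. Each match of TGAGGTCA is shown in 30 bases read on the strand of the letters, with the motif in capitals. Lypd4 and Spaca6 have it on the strand opposite to the gene, and Spaca3 has it at 2 places.
Ace, chr11:105975126-105975155 (+): acattgctctaTGAGGTCAcactgcaggct
Hyal5, chr6:24857950-24857979 (+): aatcctttctaTGAGGTCAcctgtggagat
Izumo2, chr7:44708711-44708740 (+): ggtcgcccctgTGAGGTCAcaaagtcccca
Lypd4, chr7:24869816-24869845 (+): ctcgctctggcTGAGGTCAttcgacgcccc
Spaca3, chr11:80858172-80858201 (+): agatagtgattTGAGGTCAggctgaactac
Spaca3, chr11:80858360-80858389 (+): tctagaagggcTGAGGTCAacctgaagtcg
Spaca4, chr7:45725799-45725828 (-): ctgagtgtctgTGAGGTCActgagttccat
Spaca6, chr17:17830994-17831023 (-): agtgacctttgTGAGGTCAttgtgggggag

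Lists of other genes of the same processes had medians nearer to 0, but they were not matched to the acrosome list for signal. Of 18 genes for acrosome biogenesis 16 were lower, with a median of −0.18 that was −0.09 after quantile normalization and −0.08 at a common trimmed mean, and none was called. The smallest p-values were those of Gba2, a glucosylceramidase whose loss in the mouse gives round-headed sperm, at 1380 ± 43.2 and 1057 ± 110 (log2 −0.39, adjusted p = 0.089), and Actl9, an actin-like protein of the sperm head, at 10445 ± 1.23 and 8961 ± 400 (log2 −0.22, adjusted p = 0.092). Among 20 genes for surface protein maturation and gamete interaction 15 were lower, with a median of −0.08 that became 0.02 under both of those scalings, and 1 was called. That gene, the chaperone Calr3, fell 1.505-fold from 4414 ± 271 to 2933 ± 166 (limma adjusted p = 0.048), a call kept under 7 of 12 alternatives with all arrays, with a log2 difference of −0.65 to −0.45 over every alternative run.

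Of 15 testis serine proteases related to acrosin 12 were lower (median −0.17, −0.05 after quantile normalization and −0.06 at a common trimmed mean), and none was called. Prss45 was at 2138 ± 35.8 and 1378 ± 163 (log2 −0.64, adjusted p = 0.051) and Prss46 at 1660 ± 177 and 1274 ± 19.2 (log2 −0.38, adjusted p = 0.090). Of 12 genes for acrosomal exocytosis and egg activation 7 were lower and 5 higher (median −0.04, 0.07 and 0.06 under those scalings), and none was called. The smallest p-values there were those of Plcd4, a phospholipase used in the acrosome reaction, at 3706 ± 108 and 3102 ± 84.3 (limma adjusted p = 0.085), and Napa, a vesicle fusion factor, at 1687 ± 33.4 and 1446 ± 0.344 (adjusted p = 0.12). The 5 higher genes of that list all had a mean signal under 1000, where all genes tested had a median of −0.02.

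The shift had the same direction as that of other spermatid genes and the opposite direction to that of some somatic markers. Of 24 spermatid genes outside the list 22 were lower, with a median of −0.15 (−0.10 after quantile normalization and −0.05 at a common trimmed mean), and none was called. Both knockout arrays lay below both wild type arrays for 21 of the 24 (87.5%), against 25 of the 31 listed genes (80.6%). At an unadjusted p under 0.05 limma gave 14 of the 24 lower (58.3%), against 16 of the 31 (51.6%). The summed signal of the 24 spermatid genes was 799448 and 772733 in wild type and 735566 and 717200 in the knockout. Of 14 pachytene spermatocyte genes 9 were lower (median −0.07, 0.04 and 0.03 under those scalings). Of 16 Sertoli cell markers listed 12 were measured, with 7 higher and 5 lower (median 0.05, which was 0.12 after quantile normalization and 0.16 at a common trimmed mean), with sums of 64609 and 62459 against 81208 and 78110, and Ptgds was called higher (limma adjusted p = 0.049). Most of these sums was signal of Clu (means 33614 in wild type and 40535 in the knockout), Ctsl (13515 and 18388) and Ptgds (8602 and 12376). Sox9 and Wt1 differed by 0.04 and 0.07, Gata4 and Inhbb by −0.20 and −0.24. The 7 Leydig cell markers had 6 higher (median 0.19, and 0.29 and 0.30 under those scalings), with sums of 18856 and 18789 against 22707 and 23383, and Cyp17a1 was called higher (limma adjusted p = 0.0496). The calls of Ptgds and Cyp17a1 were not followed over the alternatives. All 10 macrophage and leukocyte markers were higher (median 0.12, and 0.20 and 0.23 under those scalings), with sums of 4049 and 4150 against 4547 and 4816, and none was called. Signal of Amh, Fshr, Gdnf, Cd68, Cd14 and Ptprc was under the filter. The 3′ to 5′ signal ratio of the actin control was 2.09 and 1.999 in wild type and 2.42 and 2.18 in the knockout. That of the Gapdh control went the other way, at 1.04 and 0.990 in wild type and 0.927 and 0.938 in the knockout. Adipocyte markers differed within genotype, with sums of 988 and 4170 in wild type and 1096 and 1798 in the knockout, and epididymis markers had 438 and 859 against 411 and 396. Of the adipocyte markers 5 of 6 measured were lower, of the epididymis markers 2 of 5, of the spermatogonial markers 4 of 9 (median 0.08) and of the peritubular and vascular markers 1 of 5 (median 0.04), and none was called. The part of these in the lower acrosome signals was not tested.

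**Figure D5:**
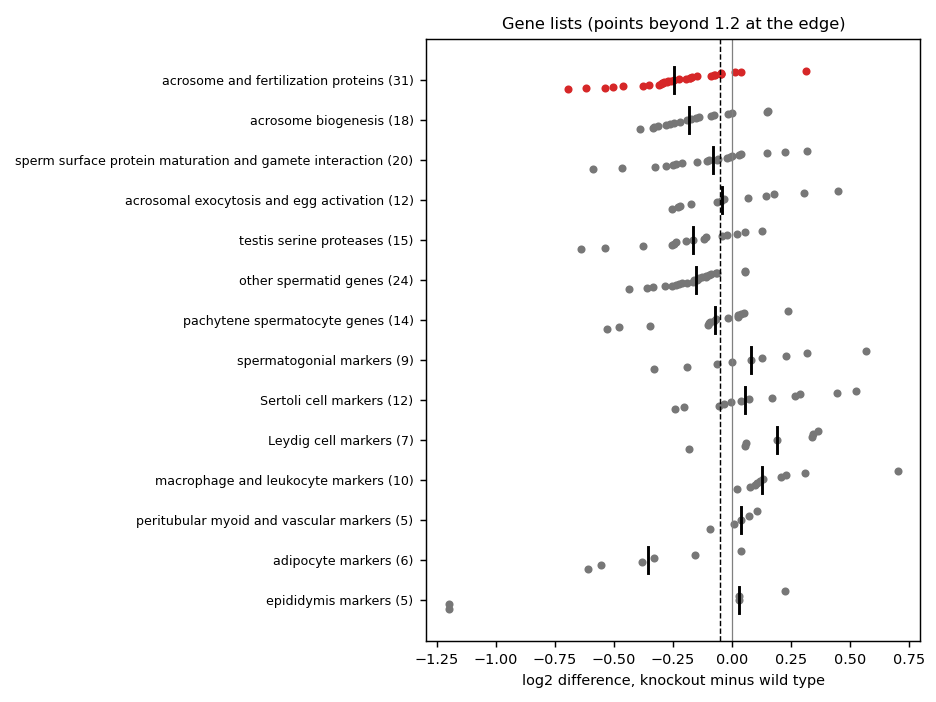
Log2 difference, knockout minus wild type, of each measured gene of the acrosome list (red) and of 13 other lists (grey, number of genes in brackets), with a black bar at each median and a dashed line at the median of all genes (−0.05); points beyond 1.2 are drawn at the edge. The acrosome list has its median at −0.24 and the 24 other spermatid genes at −0.15, while the Leydig cell markers have theirs at 0.19.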

How the data were processed

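RNA from whole testis was labelled with biotin and hybridised to 1 Affymetrix array per sample, per the labels' protocols. The authors deposited, for each of 45101 probe sets and each array, a signal that is an intensity on a linear scale. The submitters' processing notes name MAS5, with no version and no scaling target, so the scaling between arrays is not known. The trimmed mean signal was 511 on both wild type arrays, 467 on knockout replicate 1 and 483 on knockout replicate 2. The number of arrays limits the precision.

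The log2 of each signal was used with nothing added. Gene symbols came from the array's annotation, brought up to date against RefSeq by gene ID (34741 of 45037 mouse probe sets matched), and probe sets of several genes were dropped. The genotypes were set against each other in limma 3.58.1 under R 4.3.3 (lmFit, eBayes with a trend, genotype as the only term, 2-sided, Benjamini-Hochberg over 22519 kept probe sets, called at an adjusted p under 0.05). With 2 arrays a group the smallest p of an exact permutation is 0.333. The fit was run on data simulated from its own variance model, with shifts larger than those of the listed genes. That run cannot show how well differences of the size seen here are found. The planned comparison of member proteins was not made, since no protein table was used here. The naming rule takes every member, Taf7l, and from each list of related genes those called or the 2 with the smallest p. Members, lists and tests were chosen with earlier results of these data known. The motifs TGAGGTCA and TCTTATT were added later.

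The alternatives were 3 scalings, an offset of 16, other filters, variance models, thresholds and probe set choices, the replicate number as a block, and each array left out.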

Additional observations from a re-analysis of the deposited data

How the results depend on the processing

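Of the 31 listed genes, 22 kept their sign under every alternative that gave them a value (16 or 17 each) and 9 did not. After quantile normalization the difference was 0.084 for Izumo1, 0.028 for Zpbp, 0.070 for Ly6k and 0.0093 for Plcz1. At a common trimmed mean it was 0.016 for Spaca1, 0.0558 for Izumo1, 0.0563 for Zpbp, 0.0287 for Crisp2, 0.0592 for Ly6k and 0.0320 for Plcz1. With 1 array left out it ran from −0.185 to 0.0082 for Spaca1, −0.101 to 0.0040 for Izumo1, −0.0675 to 0.0951 for Izumo4 and −0.0991 to 0.0027 for Zpbp, and it changed sign without knockout replicate 1 for all 4 and without wild type replicate 2 for Izumo4, at −0.0094. It was 0.0137 for Spaca3 with the mean of probe sets per gene and 0.29 for Ace with single-transcript probe sets, which drops its leading one. Otherwise the cause was not tested.

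Limma called 1 listed gene at the leading probe set, against 0 after quantile normalization, 3 with median centring, 2 at a common trimmed mean, 0 with no filter, 11 with the filter at the 75th percentile, 0 with no trend in the variance, 11 at an adjusted p under 0.10, 8 with the mean of probe sets per gene, 4 with only the brightest probe set of each gene, 0 where probe sets had to read a single transcript and 0 with any 1 array left out, where limma called no probe set at all. Where none was called, limma gave 7 to 20 listed genes at an unadjusted p under 0.05. The median of −0.24 was −0.12 after quantile normalization, −0.14 at a common trimmed mean and −0.29 to −0.14 with 1 array left out. Among all kept probe sets 312 were called, against 148, 646, 557, 0, 2375, 36, 2628, 965, 806, 179 and 0 under the settings in the order just given, and 6192 had an unadjusted p under 0.05 with no filter and 3084 to 5500 with 1 array left out. These counts were not over the same number of features. The mean of probe sets and the brightest probe set were tested over 12241 genes each. The stricter filter and the single-transcript rule tested fewer probe sets than the 22519 of the main fit, and no filter tested more. The share of calls that were higher was 32.1% as deposited, 69.4% with no trend in the variance, 61.5% after quantile normalization and 61.9% at a common trimmed mean. The deviations of arrays with the same replicate number had a correlation of 0.03. Yet wild type replicate 2 and knockout replicate 2 held equal values at 2385 probe sets, against 229 to 620 for other pairs. With the replicate block 541 probe sets and 1 listed gene were called.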
